A study of Homo sapiens with 36 samples.

Results

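LPS-treated THP-1 cells were profiled at 2 times, and the later time, 24 h, is set here against the earlier one, 4 h. THP-1 is an established human monocytic leukaemia cell line, and lipopolysaccharide (LPS) is the outer-membrane glycolipid of Gram-negative bacteria. The comparison takes 6 of the 36 bead arrays of the series, the 3 of LPS 24 h and the 3 of LPS 4 h, chosen by their sample titles and not by any measured value. Cells of both groups received 1 µg/ml LPS and no inhibitor. Cells without LPS (control 24 h and control 4 h, 3 arrays each) give the time difference of the culture itself. Cells given 10 µM SB203580, an inhibitor of p38 MAP kinase, served as a further comparison: SB203580 alone at 24 h and 4 h, and SB203580 with LPS (SB+LPS) at 24 h and 4 h, 3 arrays each, with the inhibitor added 15 min before LPS. DMSO was the vehicle for SB203580 and bovine serum albumin that for gp120, and no vehicle for LPS is stated. The remaining 12 arrays, of cells given the HIV envelope protein gp120, entered the fit for its estimate of the spread and are not described. The labels call the 3 samples of a group biological replicates. All of them are cultures of 1 cell line, which limits what the values say of monocytes from blood.

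LPS is carried to the cell by CD14 and is sensed by the pair TLR4 and MD-2, and LY96 encodes MD-2. Within the first hours TLR4 signalling through MyD88 and TRIF activates NF-kB, the MAP kinases and IRF3, which induce cytokines, chemokines, interferon beta and many of their own inhibitors. Later transcripts depend on newly made proteins: secreted interferon drives interferon-stimulated genes through JAK-STAT signalling, feedback inhibitors shut off part of the early response, and monocytes take on macrophage features such as scavenger receptors, proteases and inflammasome components.

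Promoter sequences of 6 genes are printed here. They come from a list whose called members were all higher at LPS 24 h, and from lists with more called members lower than higher. IFITM1, HERC5 and IFI44 are interferon-stimulated genes that were higher at LPS 24 h. CXCL2, REL and CXCL1 are chemokine and NF-kB genes that were lower at LPS 24 h. The CXCL1 arrays overlapped between the times, and its LPS-specific call, defined below, was lost in 14 of 18 removals of a single array. Each is the 250 bases before the gene's start, 5′ to 3′ on the gene's own strand, from RefSeq on GRCh38.p14. Capitals mark matches, on either strand, to GAAANNGAA, the core of the interferon-stimulated response element, in the first 3 genes, and to GGANTTTCC, an NF-kB core, in the others. They are the genes of their group with the largest time differences whose promoter held a match, so the printed set was selected for the match. The match lies 40 bases before the start in IFITM1 and 17 in IFI44. HERC5 has 3, of which the pair at 124 and 118 bases overlaps. It lies 77 bases before the start in CXCL2, 46 in REL and 78 in CXCL1.
IFITM1, chr11:313790-314039, plus strand: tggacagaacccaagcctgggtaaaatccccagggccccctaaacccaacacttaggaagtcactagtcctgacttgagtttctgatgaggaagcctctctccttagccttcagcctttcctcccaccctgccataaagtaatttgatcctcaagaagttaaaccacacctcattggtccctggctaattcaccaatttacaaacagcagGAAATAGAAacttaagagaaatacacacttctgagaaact
HERC5, chr4:88456869-88457118, plus strand: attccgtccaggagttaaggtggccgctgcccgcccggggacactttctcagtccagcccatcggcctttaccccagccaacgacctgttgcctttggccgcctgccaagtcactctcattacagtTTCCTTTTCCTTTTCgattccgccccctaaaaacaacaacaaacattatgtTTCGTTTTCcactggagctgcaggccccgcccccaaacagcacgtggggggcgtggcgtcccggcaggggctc
IFI44, chr1:78649539-78649788, plus strand: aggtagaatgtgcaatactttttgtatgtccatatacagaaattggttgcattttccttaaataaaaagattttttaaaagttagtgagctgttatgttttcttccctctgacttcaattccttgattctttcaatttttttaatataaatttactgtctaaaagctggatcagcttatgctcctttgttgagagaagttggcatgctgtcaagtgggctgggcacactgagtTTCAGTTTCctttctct
CXCL2, chr4:74099196-74099445, minus strand: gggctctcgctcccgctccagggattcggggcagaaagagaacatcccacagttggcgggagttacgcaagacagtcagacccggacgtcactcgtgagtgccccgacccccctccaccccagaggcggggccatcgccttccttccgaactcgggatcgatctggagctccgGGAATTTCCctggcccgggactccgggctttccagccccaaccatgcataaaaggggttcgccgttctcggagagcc
REL, chr2:60881324-60881573, plus strand: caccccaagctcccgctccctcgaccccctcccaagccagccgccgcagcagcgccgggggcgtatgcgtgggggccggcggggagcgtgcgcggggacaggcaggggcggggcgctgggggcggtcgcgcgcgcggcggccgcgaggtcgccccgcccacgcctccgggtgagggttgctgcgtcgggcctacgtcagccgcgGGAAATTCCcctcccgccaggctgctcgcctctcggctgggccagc
CXCL1, chr4:73869143-73869392, plus strand: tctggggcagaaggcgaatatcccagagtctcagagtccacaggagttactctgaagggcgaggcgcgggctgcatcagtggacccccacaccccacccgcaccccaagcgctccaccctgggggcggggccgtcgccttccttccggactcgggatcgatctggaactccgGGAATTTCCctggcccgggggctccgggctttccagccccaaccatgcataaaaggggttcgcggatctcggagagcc

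A promoter was matched for 10786 of the 13582 genes tested. Over all 27305 RefSeq promoters of this length, 7.06% held GAAANNGAA, 1.47% held GGANTTTCC, and 34 held both. Among the listed interferon-stimulated genes 22 of 35 promoters (62.9%) held the first. GGANTTTCC was in 6 of 8 CXC chemokine promoters (75%), in 6 of 24 of the NF-kB list (25%) and in 4 of 17 of the cytokine list (23.5%). Among the promoters of the genes tested, 5.76% held GAAANNGAA and 1.59% held GGANTTTCC. Over the whole genome-wide sets defined below the shares were far closer to these than in the lists just named. GAAANNGAA was in 8.01% of the promoters of genes higher with time under LPS and in 5.08% of those lower. GGANTTTCC was in 1.63% of those higher and 3.46% of those lower. A match is a description of the letters in this window.

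The mean raw intensity of an array was 769.7 to 801.3 at LPS 24 h and 456.7 to 819.4 at LPS 4 h, where replicate 1 was the dimmest of the 6 arrays. Probes detected above the negative-control beads were 39.9% to 40.9% of all probes at LPS 24 h and 35.5% to 40.8% at LPS 4 h. The number of arrays limits the precision of every value. LPS 24 h was hybridised on slide 1 and LPS 4 h on slide 3, so time and slide of the LPS groups cannot be told apart by those 6 arrays alone. Control 24 h was on slide 1 and control 4 h on slide 2. SB203580 alone shared slide 1 with LPS at 24 h and slide 3 with LPS at 4 h, so the difference of LPS from SB203580 alone can be compared between the times within slides. SB203580 alone may act on genes of its own, so the time course of the inhibitor and that of LPS cannot be told apart in a call of that comparison, and whether the LPS cells received DMSO is not stated. Of 10 monocyte and macrophage markers 9 were tested, and all 9 were detected on all 36 arrays. Of 35 markers of T, B, NK, erythroid, fibroblast, epithelial and endothelial cells 16 were tested, and 11 of these were detected on at most 8 arrays, CD3D, MS4A1, HBB, KRT18 and VWF among them. The summed normalised signal of these 16, on the unlogged scale, was 6417.6 to 7868 at LPS 24 h and 3299.9 to 4552.1 at LPS 4 h. PECAM1 weighed most in that sum, with mean log2 levels of 12.38 at LPS 24 h and 11.52 at LPS 4 h. NKG7 came next, at 9.87 and 8.49, and both were detected on all 36 arrays. At an adjusted p under 0.05 in limma 4 were called higher at LPS 24 h (PECAM1, NKG7, CD79B and CD2) and 0 lower, 1 being lower at an unadjusted p under 0.05. The 11 seldom detected markers were not called. The part of these markers in the results was not tested. Each array measured RNA of a whole culture, so more cells expressing a gene and more RNA per cell cannot be told apart.

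All levels below are log2 bead intensities after background correction and quantile normalisation, and a difference is LPS 24 h minus LPS 4 h unless another is named. Of the 13582 genes tested, 4223 differed between LPS 24 h and LPS 4 h at an adjusted p under 0.05 in limma, 2421 higher (17.8% of all genes) and 1802 lower (13.3%). The difference reached 2-fold in 1921 of them. Over all genes tested the median difference was 0.03, and the median standard error of a gene was 0.234. Control cells changed over the same time as well: 579 genes were higher (4.26%) and 688 lower (5.07%) at control 24 h than at control 4 h. Those arrays too lay on different slides, and the 1267 calls became 390 without control 4 h replicate 1. The time difference with LPS departed from that without LPS in 1662 genes by the test of the difference of differences. Slides do not cancel in that test, since LPS 4 h was on slide 3 and control 4 h on slide 2. LPS and slide thus cannot be told apart in the call that follows. A gene is called LPS-specific in its time difference where both tests called it with the same sign. This held for 848 genes that were higher (6.24% of all genes) and 542 that were lower (3.99%) at LPS 24 h. Another 2833 genes that differed between the LPS times were not distinguished from the control time difference, and 38 LPS-specific genes had a called control difference of the opposite sign.

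**Figure D1:**
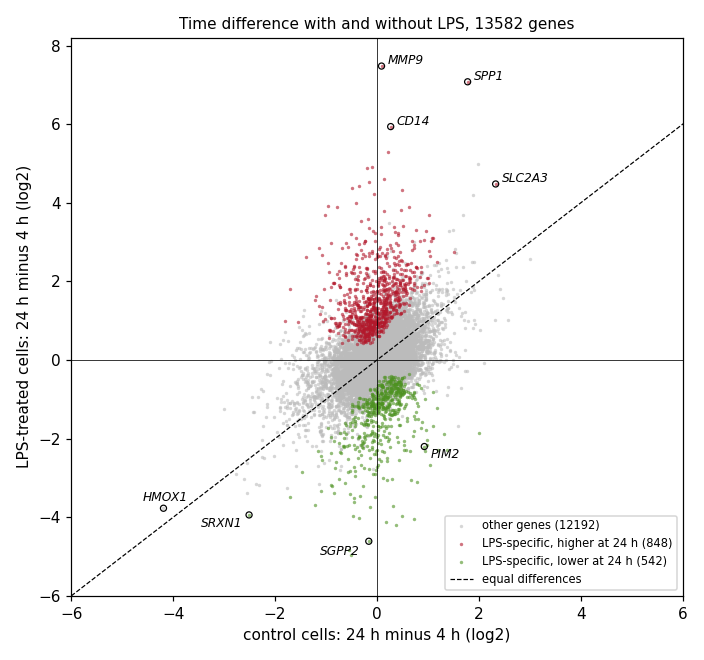
Time difference of each of the 13582 genes with LPS (LPS 24 h minus LPS 4 h, log2, vertical axis) against that without LPS (control 24 h minus control 4 h, log2, horizontal axis), with the 848 genes called LPS-specific higher and the 542 called lower in colour and genes of the text named. CD14 at 5.94 lies far above the diagonal of equal change. MMP9 lies above and SGPP2 below the diagonal, each drawn at its fitted difference from a group with 0 of 3 arrays detected. HMOX1 lies near the diagonal, at -3.77 with LPS and -4.19 without.

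Within slides, the difference of LPS from SB203580 alone changed between 24 h and 4 h in 1364 genes, 850 with a larger and 514 with a smaller value at 24 h. Of the LPS-specific genes 595 of the higher (4.38% of all genes) and 330 of the lower (2.43%) were called in this within-slide test with the same sign, and 4 had the opposite sign there, of which 0 were called by limma, also at an unadjusted p under 0.05. The within-slide test holds the same LPS arrays as the comparison that chose these genes, so a shared sign is partly built in. A within-slide call, here or in the lists below, is therefore not separate support. With slide as a block, in a model without the 3-way interaction of stimulus, inhibitor and time, 627 genes differed between the LPS times, 0 between the control times in limma (468 at an unadjusted p under 0.05), and 88 were LPS-specific. The naming rule picked 117 genes, of which 107 were called between the LPS times. Of those 107, 49 lost their call with slide as a block, and 1 of the 49 turned its sign. Scaling also moved the split: 57.3% of the genes called between the LPS times, and 61% of the LPS-specific ones, were higher at LPS 24 h after quantile normalisation. The 2 shares were 78.4% and 89.5% with arrays scaled to equal medians, and 47.9% and 45.1% with medians equalised over probes detected on all arrays, a setting chosen after seeing the data.

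Of the LPS sensing machinery, CD14 and LY96 were among the genes higher at LPS 24 h, and TLR4 was not among the LPS-specific rises. The list of pattern recognition receptors and adaptors had 22 genes tested, of which 13 rose and 2 fell. This and every list count below stands beside the shares of all genes, 17.8% higher and 13.3% lower. For LPS-specific counts those shares are 6.24% higher and 3.99% lower. In 9 the rise was LPS-specific and in 7 it was also called within slides, and 6 were LPS-specific without LPS 4 h replicate 1 or without LPS 24 h replicate 2. The list's median difference was 0.88, against 0.03 over all genes. CD14, the co-receptor that hands LPS to TLR4, had levels of 15.12, 14.48 and 14.02 at LPS 24 h, against 9.37, 8.26 and 8.17 at LPS 4 h. The LPS 4 h arrays sat where the control arrays did, at 9.11, 8.99 and 8.40 at control 24 h and 9.65, 8.22 and 7.82 at control 4 h, and the LPS 24 h arrays lay far above all of these. The difference was 5.94 ± 0.538 (SE of the fit over all 36 arrays, n = 3 each, adjusted p = 1.38e-09), a 61.4-fold higher signal.

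LY96, which encodes the MD-2 protein that binds LPS on TLR4, had levels of 10.25, 9.53 and 9.13 at LPS 24 h, against 4.94, 5.57 and 5.25 at LPS 4 h. It was detected on every LPS 24 h array and on 0 of 3 LPS 4 h arrays. Its signal was therefore at least 14.7-fold higher (adjusted p = 1.82e-09), a bound that takes the lowest detected signal of each array for the undetected group, as do all such bounds below. TLR8, an endosomal sensor of single-stranded RNA, had 9.95, 10.21 and 9.64 at LPS 24 h, against 4.80, 5.25 and 5.08 at LPS 4 h with 0 of 3 detected. The signal was at least 18.1-fold higher (adjusted p = 2.19e-14). TLR1, which pairs with TLR2 to sense bacterial lipopeptides, had 9.13, 8.6 and 8.71 at LPS 24 h, against 4.58, 5.24 and 4.92 at LPS 4 h with 0 of 3 detected, at least 8.33-fold higher (adjusted p = 1.57e-10). In control cells TLR1 was at 6.89, 6.00 and 6.28 at 24 h and 7.40, 7.20 and 6.91 at 4 h. TLR1 thus lay below the control arrays at LPS 4 h and above them at LPS 24 h. The other LPS-specific members, TLR2, TLR6, TLR7, CGAS and NOD2, were chosen for naming after their values were seen. The largest difference among those 5 was 3.2 in NOD2, an intracellular sensor of bacterial peptidoglycan, and the smallest was 0.88 in TLR6.

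Secreted proteins of the matrix group gave the 2 largest LPS-specific rises in the fit. MMP9, the gelatinase that cleaves basement-membrane collagen, had levels of 13.77, 11.87 and 11.29 at LPS 24 h, against 4.70, 5.10 and 4.69 at LPS 4 h, where it was detected on 0 of 3 arrays. The control means were 4.73 at 24 h and 4.64 at 4 h, as low as LPS 4 h. The signal was at least 94-fold higher at LPS 24 h (adjusted p = 2.06e-14). SPP1, which encodes the secreted adhesive protein osteopontin, had 13.74, 13.70 and 12.80 at LPS 24 h, against 6.41, 6.27 and 6.32 at LPS 4 h. The groups are separated by a wide gap, with a difference of 7.08 ± 0.495 (SE, adjusted p = 6.97e-12). SPP1 also rose without LPS, by 1.78 (adjusted p = 0.0222), and with SB203580 alone its mean at 24 h was 10.14. Its within-slide value was 2.56 (adjusted p = 0.016) and lost its call without SB203580 24 h replicate 3. VCAN, the matrix proteoglycan versican of monocytes, rose by 3.92 (adjusted p = 4.86e-09). In the list of matrix metalloproteinases, inhibitors and matrix, 8 of 23 genes tested rose and 6 fell, against 17.8% and 13.3% of all genes. LPS-specific were 5 of these rises and 3 of the falls, and the list's median was 0.05. MMP14 (1.76) and MMP25 (1.84) were the other LPS-specific rises, and THBS1 (-2.76), CCN2 (-3.96) and MMP1 (-1.35) the falls. Of these 5 only CCN2 belongs to the genes named by rule, and the others were named after their values were seen.

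**Figure D2:**
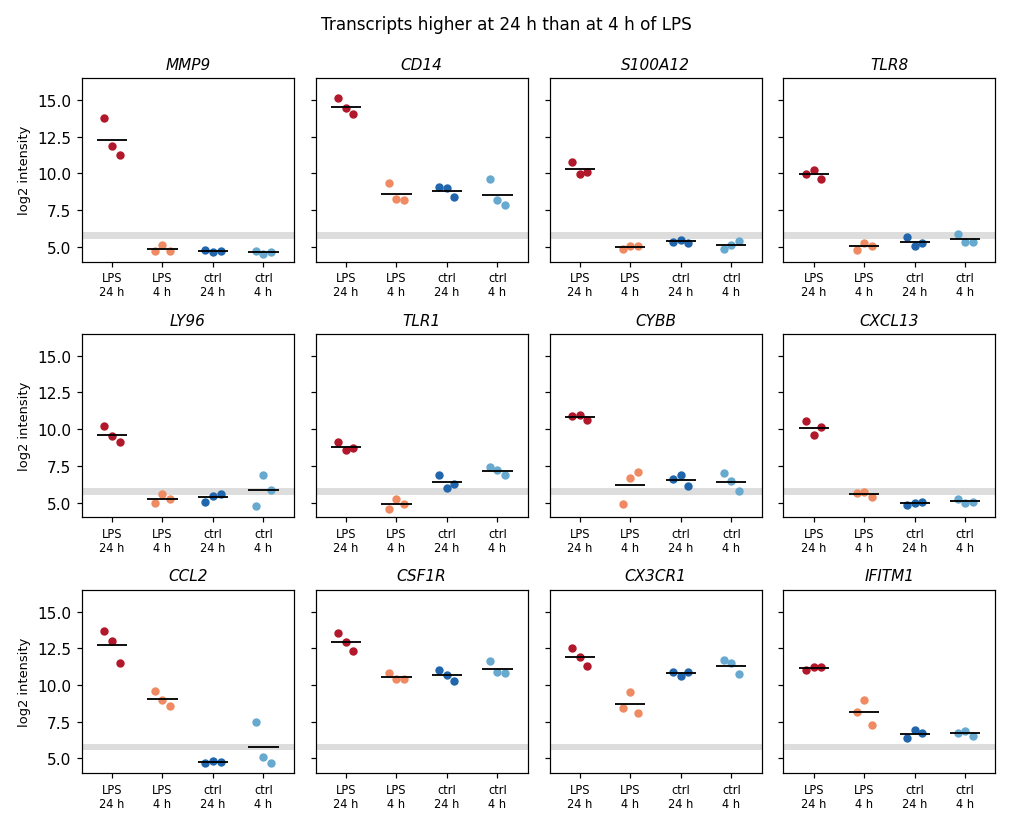
Log2 normalised intensity of transcripts that were higher at LPS 24 h, 1 point an array, with LPS 24 h, LPS 4 h, control 24 h and control 4 h from left to right in each panel and a bar at each group's mean. The grey band spans the lowest detected signals of the 12 arrays shown. In each gene shown the 3 LPS 24 h points lie above the 3 LPS 4 h points, with MMP9 at 11.29 to 13.77 against 4.69 to 5.10 and CD14 at 14.02 to 15.12 against 8.17 to 9.37.

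S100A12, a calcium-binding alarmin of myeloid cells, had 10.81, 9.96 and 10.10 at LPS 24 h, against 4.84, 5.09 and 5.03 at LPS 4 h with 0 of 3 detected. Every LPS 24 h array was above every LPS 4 h array, and by the group means the signal was at least 23.2-fold higher (adjusted p = 3.45e-13). The azurophil granule proteases of the same list went the other way. CTSG, cathepsin G, had 12.17, 11.84 and 12.01 at LPS 24 h, against 14.25, 14.25 and 14.08 at LPS 4 h, with control means of 14.02 at 24 h and 14.20 at 4 h. So CTSG was at the control level at LPS 4 h and below it at LPS 24 h, a difference of -2.19 (adjusted p = 3.04e-11). Across this granule and S100 list 4 of 11 genes tested rose and 6 fell, with 1 and 4 LPS-specific and a median of -0.79. The falls of AZU1 (-1.37) and PRTN3 (-1.89), further granule proteins, were LPS-specific, but AZU1 lost that call without control 24 h replicate 3 and PRTN3 in 8 of 18 removals of a single array. The 4 LPS-specific falls became 2 without control 24 h replicate 3, and with slide as a block AZU1 was at -0.49 and PRTN3 at -0.35.

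CYBB, the catalytic subunit of the phagocyte NADPH oxidase, had 10.87, 10.94 and 10.63 at LPS 24 h, against 4.89, 6.65 and 7.09 at LPS 4 h. The LPS 4 h arrays were spread over a wide range yet all lay below LPS 24 h, and the difference was 4.60 ± 0.462 (SE, adjusted p = 9.83e-09). ANTXR1, an anthrax-toxin receptor that binds collagen, had 11.82, 11.29 and 11.03 at LPS 24 h, against 5.77, 6.47 and 7.12 at LPS 4 h. Control arrays lay between those groups, at 7.93, 8.00 and 8.15 at 24 h and 8.10, 8.16 and 8.13 at 4 h. The difference of ANTXR1 was 4.92 ± 0.249 (SE, adjusted p = 7.85e-15), and 1.53 (adjusted p = 0.035) with slide as a block. EPB41L3, a membrane-skeleton linker, rose by 4.43 (adjusted p = 1.61e-07).

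Of the chemokines tested, 1 of 9 CXC and 2 of 13 CC members were higher at LPS 24 h, against 17.8% of all genes. The LPS-specific rises were the same in number, against 6.24% of all genes. CXCL13, the B-cell attractant, had 10.59, 9.61 and 10.12 at LPS 24 h, against 5.67, 5.72 and 5.38 at LPS 4 h. The groups did not overlap, and the difference was 4.52 ± 0.211 (SE, adjusted p = 2.73e-15). CXCL13 was detected on 1 of 3 LPS 4 h arrays, so the size of its rise rests partly on undetected signal. CCL2, the monocyte attractant MCP-1, had 13.70, 12.96 and 11.51 at LPS 24 h, against 9.56, 8.96 and 8.56 at LPS 4 h, and its control means were 4.74 at 24 h and 5.74 at 4 h. It was thus already above control cells at LPS 4 h and 13-fold higher again at LPS 24 h (difference 3.70 ± 0.728, SE, adjusted p = 0.000238). The CCL2 difference was 1.64 (adjusted p = 0.538) with slide as a block. CCL8, a related attractant, was detected on 2 of 3 arrays at LPS 24 h and on 0 of 3 at LPS 4 h, at least 2.76-fold higher (adjusted p = 0.000907). Its LPS-specific call was lost in 17 of 18 removals of a single array and with slide as a block (0.66, adjusted p = 0.738).

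In the list of chemokine and chemoattractant receptors 4 of 12 genes tested rose and 1 fell, against 17.8% and 13.3% of all genes. LPS-specific were 3 of these rises and the 1 fall, and the median was 0.44. CX3CR1, the fractalkine receptor, had 12.53, 11.87 and 11.30 at LPS 24 h, against 8.46, 9.53 and 8.08 at LPS 4 h, with control arrays at 10.88, 10.64 and 10.87 at 24 h and 11.68, 11.49 and 10.76 at 4 h. LPS 4 h lay below all control arrays and LPS 24 h above those of the same time. The difference was 3.21 ± 0.347 (SE, adjusted p = 3.57e-08), and 1.64 (adjusted p = 0.127) with slide as a block. CCR2, the receptor of CCL2, had 10.68, 10.66 and 10.56 at LPS 24 h, against 7.30, 9.39 and 8.27 at LPS 4 h, and control arrays at 11.47, 11.18 and 10.48 at 24 h and 11.72, 11.49 and 11.33 at 4 h. CCR2 at LPS 24 h was in the range of control cells of the same time, with a difference of 2.31 (adjusted p = 1.97e-05), and 1.83 (adjusted p = 0.111) with slide as a block. GPR84, a receptor for medium-chain fatty acids, rose by 1.68 (adjusted p = 0.000291), a call lost with slide as a block (0.78, adjusted p = 0.525), while ADORA2A, an anti-inflammatory adenosine receptor, fell by 3.02 (adjusted p = 4.89e-06).

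Macrophage differentiation and scavenger receptor genes moved in both directions: of 29 tested, 12 rose and 4 fell, with 5 and 2 LPS-specific and a median of 0.56. CSF1R, the receptor of the macrophage growth factor M-CSF, had 13.55, 12.95 and 12.34 at LPS 24 h, against 10.82, 10.42 and 10.40 at LPS 4 h. The groups did not overlap, and the difference was 2.40 ± 0.327 (SE, adjusted p = 1.56e-06). CD36, a scavenger receptor for oxidised lipoproteins, had 11.81, 11.63 and 10.82 at LPS 24 h, against 7.99, 8.85 and 8.82 at LPS 4 h (difference 2.87, adjusted p = 2.56e-08). CSF1R was at 1.67 (adjusted p = 0.0929) and CD36 at 1.05 (adjusted p = 0.3) with slide as a block. CD163, the haemoglobin scavenger receptor, was detected on 3 of 3 arrays at LPS 24 h and 0 of 3 at LPS 4 h, at least 1.97-fold higher (adjusted p = 3.29e-08). OLR1, the lectin-like receptor for oxidised lipoproteins, moved against its list, with 8.59, 8.43 and 7.70 at LPS 24 h, against 11.08, 9.70 and 10.75 at LPS 4 h (difference -2.27, adjusted p = 9.03e-08). FCGR1A (1.14), SCARB2 (1.2) and LPL (-0.97) complete the LPS-specific members and were named after their values were seen. Of the lysosomal list 8 of 23 rose and 2 fell, with 3 LPS-specific rises and a median of 0.32. CTSH, the protease cathepsin H, led them with 13.98, 13.19 and 13.16 at LPS 24 h, against 10.41, 10.38 and 10.02 at LPS 4 h (difference 3.17, adjusted p = 9.66e-12), followed by CTSZ (2.25) and CTSS (1.70), of which CTSZ lost its LPS-specific call in 3 of 18 removals of a single array and its call with slide as a block (1.96, adjusted p = 0.264).

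Interferon-stimulated genes rose as a one-sided group. Of 43 tested, 22 rose and 0 fell in limma, and 0 fell at an unadjusted p under 0.05 either. In control cells 0 rose and 2 fell, with 1 and 10 at an unadjusted p under 0.05. The rise was LPS-specific in 16, of which 10 were also called within slides, and the 16 became 9 without LPS 4 h replicate 3, 10 without LPS 4 h replicate 1 and 10 without LPS 24 h replicate 2. The list's median was 0.78 with LPS and -0.15 without. IFITM1, an interferon-induced membrane protein that restricts virus entry, had 11.05, 11.20 and 11.22 at LPS 24 h, against 8.17, 8.95 and 7.30 at LPS 4 h. The 3 late arrays were nearly equal and the early ones spread, with no overlap, and the difference was 3.02 ± 0.452 (SE, adjusted p = 6.52e-06). HERC5, the ligase that attaches ISG15 to proteins, had 10.74, 10.98 and 11.48 at LPS 24 h, against 7.58, 9.31 and 8.29 at LPS 4 h (difference 2.68, adjusted p = 1.48e-05). IFI44 had 12.42, 12.47 and 11.96 at LPS 24 h, against 10.37, 10.73 and 9.07 at LPS 4 h, with control means of 7.02 at 24 h and 7.96 at 4 h (difference 2.23, adjusted p = 0.000172). IFI44 was thus above control cells at both times. With slide as a block IFITM1 kept its call at 3.45 (adjusted p = 0.00891), while HERC5 was at 1.77 (adjusted p = 0.186) and IFI44 at 1.35 (adjusted p = 0.35).

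IFIT1, an interferon-induced RNA-binding protein, did not pass the test between the times: its levels were 12.64, 12.19 and 11.92 at LPS 24 h and 12.41, 12.61 and 10.85 at LPS 4 h. Its groups overlapped, with a difference of 0.29 (95% interval -0.87 to 1.45, adjusted p = 0.741). MX1, a dynamin-like antiviral GTPase, had 7.23, 6.31 and 6.91 at LPS 24 h, against 4.96, 6.38 and 5.01 at LPS 4 h with 1 of 3 detected. On 1 early array MX1 reached the late range, and its rise of 1.36 (adjusted p = 0.00466) lost the LPS-specific call in 7 of 18 removals of a single array and its call with slide as a block (0.59, adjusted p = 0.695). GBP1 and GBP4, interferon-inducible GTPases that attack pathogen vacuoles, rose by 2.64 (adjusted p = 7.64e-09) and 2.09 (adjusted p = 2.82e-06), the 2 LPS-specific members among 5 tested guanylate-binding proteins, and GBP4 was at 1.28 (adjusted p = 0.167) with slide as a block. Among 16 genes of the immunoproteasome and MHC class I, 4 rose and 0 fell, with 0 LPS-specific in limma. At an unadjusted p under 0.05 those counts were 6, 2 and 1. IRF5, a factor of the TLR pathway, was the 1 LPS-specific member of 8 interferon regulatory factors, at 1.87, and lost that call in 8 of 18 removals of a single array.

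Inflammasome genes followed the same direction: of 10 tested, 7 rose and 0 fell in limma, also at an unadjusted p under 0.05, and 4 of the rises were LPS-specific and called within slides, with a median of 0.59. CASP1, the caspase that processes pro-IL-1β, had 12.75, 12.35 and 12.04 at LPS 24 h, against 10.97, 11.15 and 10.63 at LPS 4 h (difference 1.46, adjusted p = 1.11e-07). CASP5, which binds cytosolic LPS directly, was detected on 3 of 3 arrays at LPS 24 h and 0 of 3 at LPS 4 h, at least 4.44-fold higher (adjusted p = 7.39e-09). NLRC4, the adaptor of the flagellin inflammasome, had the same pattern of detection and was at least 2.75-fold higher (adjusted p = 1.37e-07). MEFV, which encodes pyrin, rose by 2.35 and lost its LPS-specific call in 4 of 18 removals of a single array. With slide as a block CASP1 (0.89, adjusted p = 0.0799), CASP5 (1.83, adjusted p = 0.0553), NLRC4 (1.16, adjusted p = 0.151) and MEFV (0.63, adjusted p = 0.626) all lost their call.

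In the list of eicosanoid enzymes and receptors 6 of 16 genes rose and 3 fell, against 17.8% and 13.3% of all genes. PTGS1, the constitutive cyclooxygenase, rose by 2.39 (adjusted p = 3.43e-06), TBXAS1, thromboxane synthase, by 2.19 (adjusted p = 2.63e-07) and ALOX5AP, the 5-lipoxygenase activating protein, by 1.88 (adjusted p = 2.5e-06). Those 3 were the LPS-specific members. With slide as a block all 3 lost their call, at 0.56 (adjusted p = 0.687) for PTGS1, 1.45 (adjusted p = 0.0705) for TBXAS1 and 0.88 (adjusted p = 0.32) for ALOX5AP, and PTGS1 also lost its within-slide call in 5 of 18 removals of a single array. PTGS2, the inducible cyclooxygenase, had 9.94, 9.23 and 9.00 at LPS 24 h, against 10.41, 9.67 and 11.01 at LPS 4 h. Its groups overlapped, its fall of 0.98 passed the test (adjusted p = 0.0195), and the departure from the control time difference did not. The PTGS2 difference was -1.2 (adjusted p = 0.247) with slide as a block. C3, the central complement component, was detected on 3 of 3 arrays at LPS 24 h and 0 of 3 at LPS 4 h, at least 4.54-fold higher (adjusted p = 4.47e-08), while C1S, a protease of the classical pathway, fell by 1.86 (adjusted p = 2.55e-06). TDO2, a tryptophan dioxygenase, rose by 2.99 (adjusted p = 5.21e-07), and was at 0.49 (adjusted p = 0.773) with slide as a block. C3 was at 1.06 (adjusted p = 0.26) in that model. GCH1, the first enzyme of tetrahydrobiopterin synthesis, fell by 2.35 (adjusted p = 8.41e-08).

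In the NF-kB list most genes were lower at LPS 24 h. Of 27 genes tested 17 fell and 1 rose, and 9 of the falls were LPS-specific, 8 of them also within slides. The median of the list was -0.95 with LPS and -0.44 without. REL, the c-Rel subunit, had 7.70, 7.91 and 7.33 at LPS 24 h, against 11.59, 9.62 and 11.24 at LPS 4 h. No array overlapped, and REL lay near its control means of 7.34 at 24 h and 8.25 at 4 h again, with a difference of -3.17 ± 0.374 (SE, adjusted p = 1.54e-07). TNIP3, which restrains NF-kB through ubiquitin binding, had 8.95, 8.28 and 6.82 at LPS 24 h, against 11.52, 10.89 and 11.01 at LPS 4 h (difference -3.12, adjusted p = 1.62e-08). TRAF1, a TNF-receptor adaptor, had 8.11, 6.89 and 5.77 at LPS 24 h, against 10.60, 9.07 and 10.14 at LPS 4 h (difference -3.02, adjusted p = 4.66e-07). ZC3H12C, a gene of the Regnase family of RNA-binding proteins, fell by 2.72 (adjusted p = 1.45e-09). The remaining LPS-specific members, named after their values were seen, were NFKB1 (-1.59), NFKB2 (-2.29), TNIP1 (-1.50), TNIP2 (-1.2) and IRAK2 (-2.56).

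**Figure D3:**
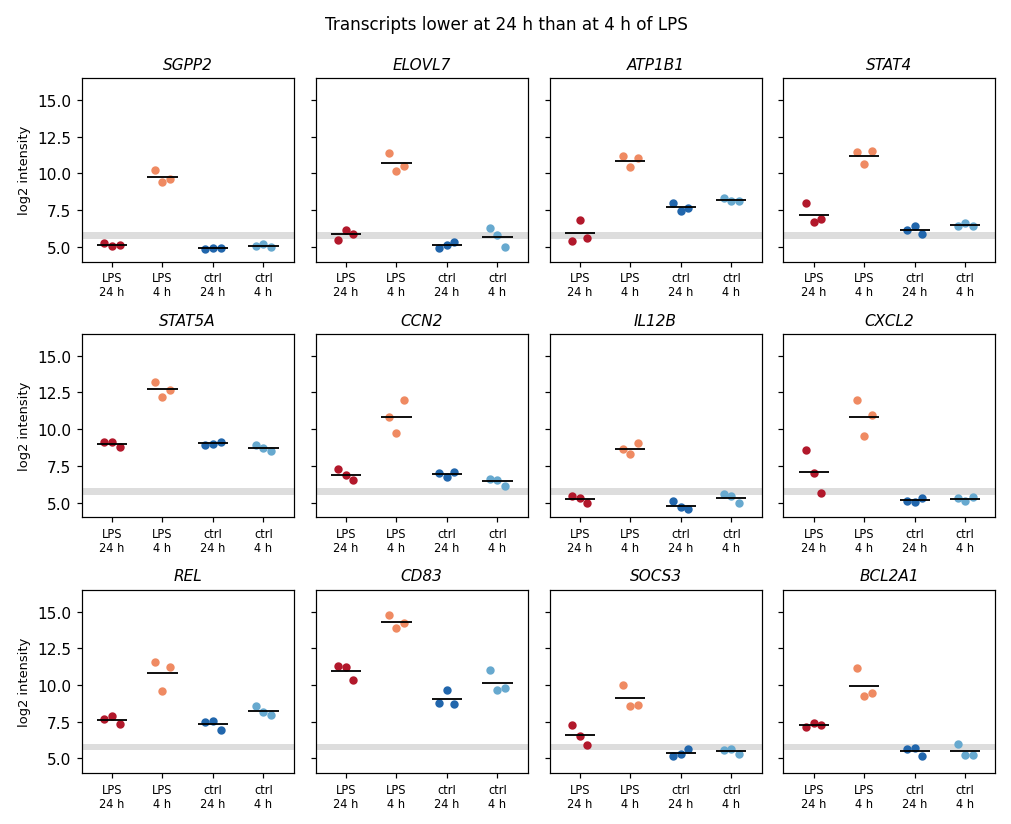
Log2 normalised intensity of transcripts that were lower at LPS 24 h, 1 point an array, with LPS 24 h, LPS 4 h, control 24 h and control 4 h from left to right in each panel and a bar at each group's mean. The 3 LPS 24 h points lie below the 3 LPS 4 h points in each gene shown, with REL at 7.33 to 7.91 against 9.62 to 11.59 and STAT5A at 8.78 to 9.11 against 12.19 to 13.24.

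IL12B and 5 further cytokine transcripts were lower at LPS 24 h with an LPS-specific difference. IL12B, the p40 chain shared by IL-12 and IL-23, had 5.47, 5.31 and 4.96 at LPS 24 h with 0 of 3 detected, against 8.62, 8.33 and 9.04 at LPS 4 h. It was at least 8.06-fold lower at LPS 24 h (adjusted p = 7.86e-11). IL23A, the p19 chain of IL-23, had 10.39, 9.75 and 10.18 at LPS 24 h, against 12.94, 11.66 and 12.63 at LPS 4 h (difference -2.31, adjusted p = 7.07e-06). Its control means were 6.98 at 24 h and 6.03 at 4 h, so IL23A stayed above control cells at both times. LTA, lymphotoxin alpha, had 7.27, 7.26 and 6.90 at LPS 24 h, against 10.79, 10.08 and 10.15 at LPS 4 h. No array overlapped, and the fall of 3.20 (adjusted p = 1.56e-10) stood beside a difference of -0.88 in control cells. IL1A, interleukin-1 alpha, had 8.5, 6.41 and 5.30 at LPS 24 h, against 10.07, 8.88 and 9.45 at LPS 4 h. Its late arrays were widely spread and all lay below the early ones (difference -2.73, adjusted p = 3.84e-05). The IL1A difference was -1.80 (adjusted p = 0.227) with slide as a block.

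IFNB1, interferon beta, whose call was lost with slide as a block (adjusted p = 0.319), was near the detection limit throughout, with 4.81, 4.97 and 4.85 at LPS 24 h and 0 of 3 detected, against 5.35, 6.14 and 6.43 at LPS 4 h and 2 of 3 detected. It was at least 1.25-fold lower at LPS 24 h (adjusted p = 6.16e-05). In the cytokine list 7 of 22 genes fell and 1 rose, and 6 of the falls and the rise were LPS-specific, with a median of -0.39 and of -0.25 in control cells. The rise was in OSM, oncostatin M (1.11), and the sixth fall in TNFSF9, the 4-1BB ligand (-1.6), both named after their values were seen, and the rise lost that call when single arrays were left out. In the list of anti-inflammatory cytokines and decoys 4 of 11 rose and 1 fell. IL1RN, the IL-1 receptor antagonist, had 11.24, 11.59 and 11.29 at LPS 24 h, against 10.48, 10.34 and 10.17 at LPS 4 h, a rise of 1.04 (adjusted p = 4.25e-05). TNFRSF1B, the TNF receptor that is also shed as a decoy, rose by 3.03 (adjusted p = 6.3e-06) and lost its LPS-specific call in 5 of 18 removals of a single array.

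CXCL2, a neutrophil attractant, had 8.59, 7.04 and 5.63 at LPS 24 h, against 12.00, 9.51 and 10.99 at LPS 4 h. No array overlapped and the spread within each time was large, with a difference of -3.75 ± 0.514 (SE, adjusted p = 1.7e-06). CXCL1, its close relative, had 8.72, 8.19 and 7.31 at LPS 24 h, against 10.96, 8.63 and 9.60 at LPS 4 h. On 1 early array CXCL1 lay within the late range, and the fall of 1.65 (adjusted p = 0.0115) was LPS-specific in the full data and lost that call in 14 of 18 removals of a single array. CXC chemokine probes of near-identical genes can share target, so CXCL1 and CXCL2 are less certain than single-copy genes. CCL24, an eosinophil attractant, fell by 2.09 (adjusted p = 5.47e-06), and was detected on 1 of 3 arrays at LPS 24 h. CXCL1 (-2.2, adjusted p = 0.157) and CCL24 (-1.23, adjusted p = 0.215) lost their call with slide as a block. Of 9 CXC chemokines 1 rose and 4 fell, with 1 and 2 LPS-specific and a median of -0.47, and of 13 CC chemokines 2 rose and 4 fell, with 2 and 3 LPS-specific and a median of -0.49. The remaining LPS-specific CC members that fell were CCL4L1 (-2.07), one of several near-identical copies of CCL4, and CCL23 (-1.2), the second named after its values were seen. The 3 LPS-specific CC falls became 1 without LPS 24 h replicate 3.

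JAK-STAT genes held some of the sharpest falls. STAT5A, a factor of cytokine receptor signalling, had 9.10, 9.11 and 8.78 at LPS 24 h, against 13.24, 12.19 and 12.70 at LPS 4 h. Its control means were 9.03 at 24 h and 8.70 at 4 h, so STAT5A was back at the control level at LPS 24 h (difference -3.71 ± 0.197, SE, adjusted p = 2.06e-14). STAT4, a factor of IL-12 signalling, had 7.97, 6.71 and 6.89 at LPS 24 h, against 11.47, 10.63 and 11.53 at LPS 4 h (difference -4.02, adjusted p = 1.57e-10). SOCS3, a feedback inhibitor of IL-6-type receptors, had 7.30, 6.53 and 5.93 at LPS 24 h, against 9.98, 8.6 and 8.66 at LPS 4 h (difference -2.49, adjusted p = 8.67e-07, and -1.89 with an adjusted p of 0.0502 with slide as a block). Those 3 were the LPS-specific members of 15 tested, of which 1 rose and 5 fell, with a median of -0.47.

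In the apoptosis and survival list 11 of 20 genes fell and 1 rose, 7 falls were LPS-specific and called within slides, and the median was -0.77, against 0.10 in control cells. BCL2A1, an NF-kB-induced survival protein, had 7.14, 7.39 and 7.30 at LPS 24 h, against 11.16, 9.28 and 9.43 at LPS 4 h (difference -2.68, adjusted p = 3.82e-06). BCL2L11, which encodes the death-promoting BIM, had 5.34, 6.54 and 5.68 at LPS 24 h, against 8.29, 7.54 and 8.36 at LPS 4 h (difference -2.21, adjusted p = 4.16e-05). BCL2L11 turned to 0.44 (adjusted p = 0.793) with slide as a block. PIM2, a survival kinase, had 10.51, 9.59 and 9.27 at LPS 24 h, against 12.55, 11.91 and 11.52 at LPS 4 h, a fall of 2.20 (adjusted p = 6.68e-07), while in control cells it was higher by 0.93 at 24 h (adjusted p = 0.0376). GADD45B, a stress sensor, fell by 1.96 (adjusted p = 1.7e-05). In that model PIM2 was at -1.12 (adjusted p = 0.22) and GADD45B at -1.18 (adjusted p = 0.247). The others, named after their values were seen, were BCL2L1 (-1.58), BID (-1.89) and GADD45A (-1.28).

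Among feedback regulators of MAP kinases, members of the same family moved in both directions. DUSP2 and DUSP5, nuclear phosphatases that switch off ERK, fell by 3.04 (adjusted p = 4.99e-08) and 2.84 (adjusted p = 2.03e-07). SPRY4, a Sprouty inhibitor of receptor tyrosine kinase signalling, had 8.38, 8.34 and 7.17 at LPS 24 h, against 4.82, 5.40 and 5.09 at LPS 4 h with 0 of 3 detected, at least 4.64-fold higher (adjusted p = 5.17e-08). SPRY1 was at least 3.46-fold higher (adjusted p = 1.79e-06) but lost its LPS-specific call without control 24 h replicate 1. Of 15 such genes 6 rose and 4 fell, 5 and 3 LPS-specific, and the median of 0.55 turned to -0.28 with slide as a block. SPRY2 (1.11), SPRED1 (1.42), SPRED2 (-1.19) and DUSP3 (0.99), named after their values were seen, complete the LPS-specific members. Of 21 AP-1, EGR and other immediate-early factors 3 rose and 6 fell, against 17.8% and 13.3% of all genes, with a median of -0.02. KLF4, a factor of monocyte differentiation, rose by 2.39 (adjusted p = 3.31e-06), and IER5, an immediate-early response gene, fell by 1.25 (adjusted p = 0.000331), and with slide as a block both lost their call (1.73, adjusted p = 0.0966, and -1.43, adjusted p = 0.0574).

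CD83, a costimulatory marker of activated antigen-presenting cells, had 11.26, 11.24 and 10.33 at LPS 24 h, against 14.78, 13.85 and 14.22 at LPS 4 h (difference -3.33, adjusted p = 3.07e-07). CD86, the costimulatory ligand of CD28, ran the other way, with 9.33, 8.97 and 8.80 at LPS 24 h, against 6.88, 6.87 and 6.49 at LPS 4 h (difference 2.29, adjusted p = 2.16e-08, and 1.05 with an adjusted p of 0.165 with slide as a block). CD40, the receptor of CD40 ligand, fell by 2.82 (adjusted p = 1.11e-05) and lost its LPS-specific call without LPS 4 h replicate 1. The 3 were the LPS-specific members among 10 MHC class II and costimulation genes.

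Several of the 10 largest LPS-specific falls were in genes outside the lists. ATP1B1, the beta subunit of the sodium pump, had 5.41, 6.81 and 5.57 at LPS 24 h, against 11.16, 10.45 and 11.03 at LPS 4 h, with control arrays of 7.97, 7.47 and 7.64 at 24 h and 8.32, 8.12 and 8.13 at 4 h. ATP1B1 thus lay above control cells at LPS 4 h and below them at LPS 24 h (difference -4.95 ± 0.285, SE, adjusted p = 8.96e-14). It was detected on 1 of 3 LPS 24 h arrays, so the size of its fall rests partly on undetected signal. ELOVL7, an enzyme that elongates long-chain fatty acids, had 5.50, 6.17 and 5.89 at LPS 24 h, against 11.40, 10.17 and 10.50 at LPS 4 h (difference -4.83, adjusted p = 3.86e-11). SGPP2, a sphingosine-1-phosphate phosphatase, had 5.23, 5.08 and 5.11 at LPS 24 h with 0 of 3 detected, against 10.25, 9.39 and 9.62 at LPS 4 h, at least 17.2-fold lower (adjusted p = 5.97e-15). S1PR3, a sphingosine-1-phosphate receptor, fell as well, by 2.50 (adjusted p = 1.06e-06, and adjusted p = 0.113 with slide as a block), and those were the 2 LPS-specific members of 9 sphingolipid genes.

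CCN2, connective tissue growth factor, had 7.27, 6.89 and 6.52 at LPS 24 h, against 10.85, 9.73 and 12.00 at LPS 4 h, and control means of 6.95 at 24 h and 6.45 at 4 h. It was back at the control level at LPS 24 h (difference -3.96 ± 0.355, SE, adjusted p = 1.14e-09), and the difference was -1.54 (adjusted p = 0.166) with slide as a block. EID3, named for its family of EP300-interacting inhibitors, had 4.68, 4.69 and 4.75 at LPS 24 h with 0 of 3 detected, against 9.59, 8.03 and 8.42 at LPS 4 h, at least 8.15-fold lower (adjusted p = 1.07e-12, and adjusted p = 0.136 with slide as a block). DNAAF1 (-4.19), ABTB2 (-4.12) and BAIAP2L1 (-4.05), an axonemal dynein assembly factor, a BTB-domain protein and an actin-bundling adaptor, were also among the 10 largest LPS-specific falls. At LPS 24 h DNAAF1 and ABTB2 were detected on 1 of 3 arrays each and BAIAP2L1 on 2 of 3.

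Many of the best-known LPS-induced transcripts were still high at LPS 24 h. Of 20 genes fixed for description, 4 rose (MMP9, CD14, CCL2 and MX1), 6 fell (IFNB1, SOCS3, CXCL10, CCL20, PTGS2 and TNFAIP3) and 10 did not pass the test. IL1B had levels of 14.87, 13.99 and 13.54 at LPS 24 h and 15.11, 14.23 and 14.78 at LPS 4 h, against control means of 7.36 at 24 h and 8.35 at 4 h. Both LPS times lay far above control cells, and the difference between them was -0.58 (95% interval -1.68 to 0.53, adjusted p = 0.456). CXCL8, the neutrophil attractant IL-8, had 15.03, 14.47 and 13.85 at LPS 24 h and 15.24, 14.43 and 15.06 at LPS 4 h, against control means of 8.01 at 24 h and 7.86 at 4 h. Its difference was -0.46 (95% interval -1.28 to 0.35, adjusted p = 0.41). EBI3, which pairs with p28 to form IL-27, had 13.46, 13.01 and 12.84 at LPS 24 h and 13.35, 13.49 and 13.27 at LPS 4 h, against control means of 5.64 at 24 h and 5.94 at 4 h. The difference of EBI3 was -0.26 (95% interval -1.03 to 0.50, adjusted p = 0.639). With slide as a block IL1B was at -2.02 (adjusted p = 0.252), CXCL8 at -1.55 (adjusted p = 0.227) and EBI3 at -1.19 (adjusted p = 0.35).

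TNF had 12.52, 12.83 and 12.41 at LPS 24 h and 13.48, 13.21 and 13.83 at LPS 4 h, against control means of 9.20 at 24 h and 10.01 at 4 h. The LPS arrays of the 2 times did not overlap, but the difference of -0.93 (95% interval -1.77 to -0.08) did not pass adjustment over all genes (adjusted p = 0.0891), and control cells had a difference of -0.80. NFKBIA, the inhibitor IkBα, had 13.69, 13.36 and 13.14 at LPS 24 h and 14.30, 13.63 and 13.93 at LPS 4 h (difference -0.55, 95% interval -1.02 to -0.09, adjusted p = 0.0657), while it fell by 1.27 in control cells (adjusted p = 0.000832). IL6 had 7.00, 7.74 and 6.64 at LPS 24 h and 8.52, 7.57 and 6.51 at LPS 4 h, a low signal at both times with overlapping arrays (difference -0.41, 95% interval -1.14 to 0.33, adjusted p = 0.425). IL6 turned to 2.43 and was called (adjusted p = 0.0202) with slide as a block. DUSP1, a MAP kinase phosphatase, had 9.68, 9.40 and 8.83 at LPS 24 h and 9.49, 7.99 and 8.41 at LPS 4 h (difference 0.67, 95% interval -0.06 to 1.41, adjusted p = 0.161). EGR1, an immediate-early factor, had 9.97, 10.58 and 10.16 at LPS 24 h and 9.96, 10.12 and 10.52 at LPS 4 h (difference 0.03, 95% interval -0.74 to 0.81, adjusted p = 0.959). DUSP1 was at -0.28 with slide as a block, TNF at -1.33 (adjusted p = 0.34), NFKBIA at -0.73 (adjusted p = 0.343) and EGR1 at 0.58 (adjusted p = 0.716). These intervals do not cover a slide effect and do not show that the levels were equal.

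**Figure D4:**
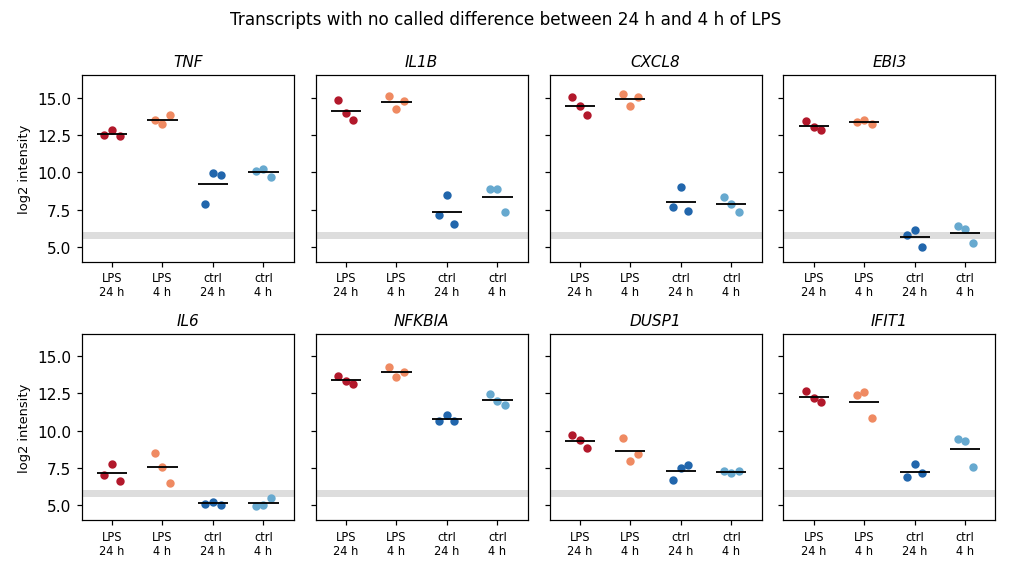
Log2 normalised intensity of 8 of the genes fixed for description that had high or mixed levels at both LPS times, 1 point an array, with LPS 24 h, LPS 4 h, control 24 h and control 4 h from left to right in each panel and a bar at each group's mean. IL1B, CXCL8 and EBI3 lie at 12.84 or above on every LPS array.

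A set of 4 of the fixed genes fell without a call that the fall departed from the control time difference. CXCL10, the interferon-induced chemokine IP-10, had 10.60, 10.25 and 10.15 at LPS 24 h, against 11.57, 11.97 and 11.43 at LPS 4 h, a fall of 1.33 (adjusted p = 3e-04), with a departure from the control time difference of -0.62 (adjusted p = 0.317). CCL20, an attractant of dendritic cells, had 11.85, 10.76 and 10.42 at LPS 24 h, against 13.83, 11.88 and 12.88 at LPS 4 h, a fall of 1.86 (adjusted p = 0.00212). The within-slide test called CCL20 (-2.23, adjusted p = 0.0214), but not CXCL10 (-1.03, adjusted p = 0.0835) or PTGS2 (-1.28, adjusted p = 0.069). With slide as a block CXCL10 was at -2.82 (adjusted p = 0.000341) and CCL20 at -2.84 (adjusted p = 0.0308). TNFAIP3, the NF-kB inhibitor A20, had 11.42, 10.68 and 10.75 at LPS 24 h, against 12.76, 11.81 and 12.09 at LPS 4 h, a fall of 1.27 (adjusted p = 0.00429, and adjusted p = 0.282 with slide as a block). PTGS2, given above, was the other. In CXCL10, CCL20 and TNFAIP3 both LPS times stayed above the control means, the highest of which were 5.84, 5.75 and 8.43 in turn.

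Some groups moved with time in control cells too. A list joined antioxidant genes and targets of the stress factor NRF2. Of its 14 genes tested 11 fell and 0 rose with LPS, and 8 fell and 0 rose in control cells in limma. At an unadjusted p under 0.05, 0 rose in either. The medians were -1.41 and -1.11, and 3 of the falls were LPS-specific. HMOX1, haem oxygenase, fell by 3.77 with LPS and by 4.19 without it. SRXN1, sulfiredoxin, had 10.35, 10.21 and 10.03 at LPS 24 h, against 14.34, 13.95 and 14.12 at LPS 4 h (difference -3.94, adjusted p = 1.41e-13), beside a difference of -2.51 in control cells. TXNRD1, thioredoxin reductase, had a difference of -2.86 (adjusted p = 8.48e-10) beside -1.47. SOD2, the mitochondrial superoxide dismutase, was the third LPS-specific member, at -0.93 (adjusted p = 0.0027, and adjusted p = 0.364 with slide as a block). Of 17 genes of cholesterol synthesis and efflux 11 rose and 0 fell with LPS, 5 rose in control cells, and 0 were LPS-specific in limma, with medians of 0.82 and 0.55. At an unadjusted p under 0.05, 12 rose and 1 fell with LPS and 1 was LPS-specific.

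Of 24 genes of glucose uptake and glycolysis 9 rose and 2 fell with LPS, with 3 and 2 LPS-specific, and the medians were 0.37 with LPS and 0.41 without. SLC2A3, the high-affinity glucose transporter GLUT3, had 10.74, 11.25 and 10.49 at LPS 24 h, against 5.94, 6.52 and 6.58 at LPS 4 h (difference 4.48, adjusted p = 8.96e-14), beside a rise of 2.33 in control cells (adjusted p = 1.55e-06). HK2, an inducible hexokinase, rose by 3.11 (adjusted p = 3.38e-07), beside 1.11 in control cells. SLC2A6, a lysosomal hexose transporter, fell by 1.70 (adjusted p = 6.37e-07), as did HIF1A, the hypoxia factor, by 1.39, named after its values were seen. Among 33 cell cycle and DNA replication genes 6 rose and 2 fell, and among 21 of the unfolded protein response 4 rose and 4 fell. Their medians were 0.12 and 0.29. These and the glycolysis counts stand beside 17.8% higher and 13.3% lower over all genes. CCND3, cyclin D3, rose by 1.22 (adjusted p = 3.1e-06), and was at 0.27 (adjusted p = 0.715) with slide as a block. Of 6 metallothioneins 2 fell and 0 rose in limma, also at an unadjusted p under 0.05, with a median of -0.27, which was 0.09 with arrays scaled to equal medians.

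**Figure D5:**
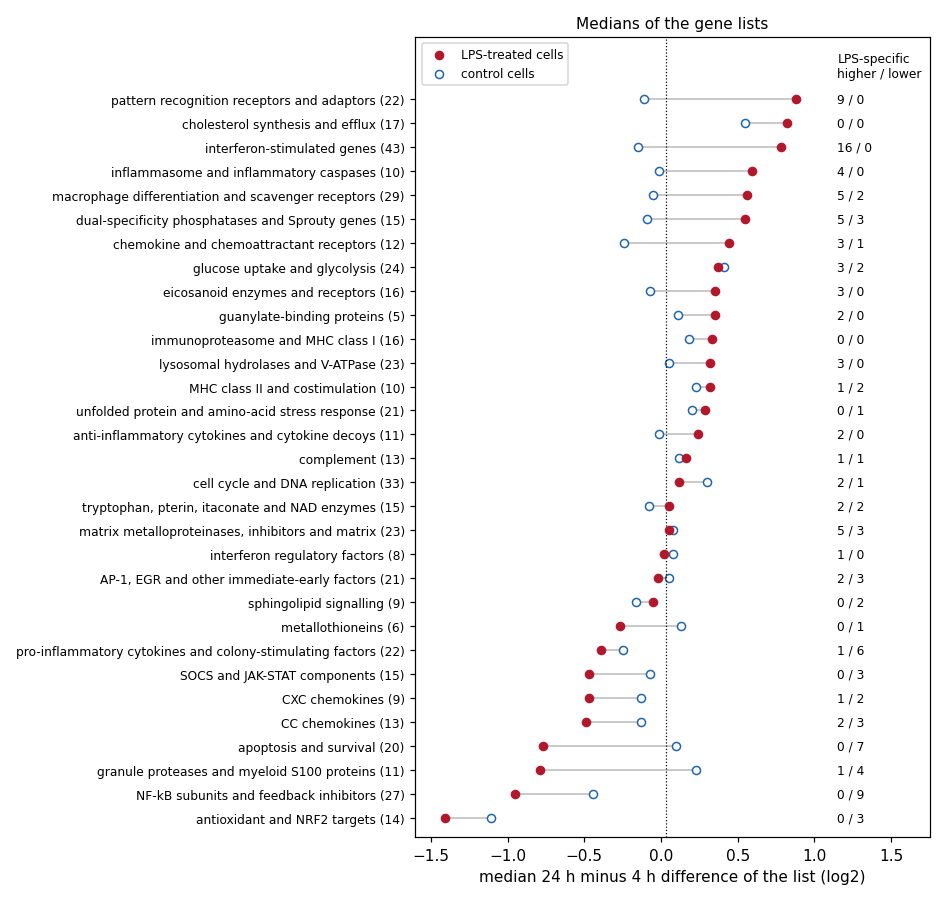
Median 24 h minus 4 h difference (log2, horizontal axis) of each gene list in LPS-treated cells (filled points) and in control cells (open points), with the number of genes tested after each list's name, the LPS-specific genes higher and lower at the right, and a dotted line at the LPS median of all genes, 0.03. Interferon-stimulated genes lie at 0.78 with LPS and -0.15 without, the NF-kB list at -0.95 and -0.44, and the antioxidant list at -1.41 and -1.11.

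The time difference was measured once more in cells given LPS with SB203580, on 6 other arrays: 2141 genes were higher (15.8%) and 1517 lower (11.2%) at SB+LPS 24 h than at SB+LPS 4 h. Those arrays were on slides 2 and 3, and the cells carried the inhibitor. SB+LPS 4 h shared slide 3 with LPS 4 h, so the comparisons with and without inhibitor are not independent of that slide. With slide as a block 83 genes differed between the SB+LPS times in limma, against 3658. Of the 848 LPS-specific rises 627 were called higher there and 2 lower (73.9% with the same sign), and of the 542 falls 385 were called lower and 2 higher (71%). SPP1 rose by 7.79 in SB+LPS cells, against 7.08 with LPS alone. The differences between the inhibitor and LPS alone were not tested. EID3 was detected on 1 of 3 arrays at SB+LPS 4 h and on 3 of 3 at LPS 4 h, and on 0 of 3 at 24 h in both. CCN2 had a difference of -1.94 in SB+LPS cells and -3.96 with LPS alone. For TDO2 the values were 0.75 (adjusted p = 0.143) and 2.99. BCL2L11 had -0.01 in SB+LPS cells and -2.21 with LPS alone, and its SB+LPS 4 h arrays were at 5.51, 6.79 and 6.26. IL6 rose by 2.06 in SB+LPS cells (adjusted p = 7.8e-05), with 8.54, 8.18 and 7.56 at SB+LPS 24 h, against 5.43, 6.57 and 6.09 at SB+LPS 4 h.

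Replicates varied together in the inflammatory genes. Over the 71 tested genes of the cytokine, CXC, CC and NF-kB lists, replicate 1 was the highest of the 3 arrays in 51 genes at LPS 24 h (71.8%, against 36.2% of all genes) and in 45 at LPS 4 h (63.4%, against 34.3%). In control cells replicate 1 was the highest in 22 of the 71 at control 24 h (31%, against 33.5% of all genes) and in 47 at control 4 h (66.2%, against 36.1%). The 71 genes share the same 3 arrays within a group, so these are descriptions. LPS 4 h replicate 1 was also the dimmest of the 6 LPS arrays, and its part in the results was not tested. Without it 557 genes were LPS-specific higher and 348 lower. Of the 103 LPS-specific genes picked by the naming rule, 83 kept that call whichever single array was left out.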

How the data were processed

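Gene expression was measured in THP-1 cells on Illumina HumanHT-12 v4 bead arrays, 36 arrays in 12 groups of 3, of which 24 in 8 groups are reported. The raw table, as deposited by the authors, holds for each array and probe a bead intensity before normalisation and a detection p-value against negative-control beads. The log2 values deposited by the authors equalled the log2 of the quantile-normalised raw intensities to within 0.000791, a step found by comparison and not stated in the sources used here. The study's design text names GeneSpring GX for the authors' analysis. The genome build is not given in the sources used here. A further 72 value columns were not used.

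The neqc function of limma 3.58.1, run in R 4.3.3, corrected the raw intensities for background (normexp, with negative-control levels inferred from the detection p-values), added an offset of 16, applied quantile normalisation and took log2. Of 47222 probes, 26473 with a detection p under 0.05 on at least 3 arrays were kept. GEO's platform annotation gave 1 symbol for 30112 probes, several for 8 and none for 17102, and 30073 symbols were brought up to date by gene ID. A gene was represented by its detected probe with the highest mean, which left 13582 genes, 3777 of them with more than 1 detected probe. Where a group had 0 arrays detected, its fold is a bound against the lowest signal among detected probes of each array, 5.63 to 5.99 on the log2 scale for the 6 LPS arrays. Where only some arrays of a group were detected, the fitted difference is given, and its size rests partly on undetected signal. An array's mean signal limits its precision in low transcripts.

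limma (lmFit and eBayes, 1 mean per group, all 36 arrays, 24 residual and 5.27 prior degrees of freedom) tested 5 contrasts two-sided with Benjamini-Hochberg adjustment over all genes: the time difference with LPS, without LPS and with SB+LPS, the LPS by time interaction, and the within-slide contrast of LPS with SB203580 alone. The p-values, standard errors and intervals rest on 1 spread per gene, pooled over the replicates of all 12 groups. That is not the spread of the 6 LPS arrays alone. In CXCL2 the SD was 1.48 at LPS 24 h and 1.25 at LPS 4 h, while the SE of the fit was 0.514. With only the groups compared in the fit, 2882 genes differed between the LPS times, against 4223, and 1057 were LPS-specific, against 1390. With 3 arrays a side, the smallest p that exact permutation allows is 0.1. Each 95% interval is from the same fit. Replicate numbers are shared between the times, but the deviations of same-numbered arrays correlated at 0.289, 0.00632 and 0.23 for the LPS groups, and the samples were not treated as paired.

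Genes were named by rule: the 10 largest LPS-specific rises and falls with non-overlapping arrays, up to 4 LPS-specific members of each gene list, and 20 fixed genes. Members beyond this are marked as named after their values were seen. Of the fixed genes, IL10 is not described because its other probe was not detected, and HK1 is left out because its probes were called in both directions. The comparison and the lists were chosen with earlier results of these data known. The fit was tested on simulated data. Alternatives were other background corrections and scalings, the authors' values, probe filters and summaries, replicate and slide blocks, only the groups compared, an intensity trend, and each array left out in turn. Figures were drawn with matplotlib 3.10.9.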

Additional observations from a re-analysis of the deposited data

Results flagged for a closer look

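The time difference with LPS departed from that of control cells in 1662 genes by the interaction test in limma (adjusted p under 0.05), 1000 with a higher and 662 with a lower value. Slides do not cancel in that test. Within slides, the difference between LPS and SB203580 alone departed between the times in 1364 genes. PIM2, the survival kinase, moved in opposite directions: every LPS 24 h array was below every LPS 4 h array (difference -2.20), while it was higher at control 24 h than at control 4 h by 0.93, and the interaction was -3.13 (adjusted p = 4.09e-06).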

How the results depend on the processing

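Counts are genes at an adjusted p under 0.05 in limma, set against 4223 for LPS 24 h against LPS 4 h, 1267 for the controls, 1662 for the interaction, 1364 within slides, 3658 for SB+LPS and 1390 LPS-specific. With slide as a block the counts were 627 (LPS), 0 (controls, 468 at an unadjusted p under 0.05), 116 (interaction), 83 (SB+LPS) and 88 (LPS-specific). That model has no 3-way interaction, and 49 of the 107 called genes of the naming rule lost their call. It turned BCL2L11 to 0.44, DUSP1 to -0.28, IFIT1 to -1.05, IL6 to 2.43 (adjusted p = 0.0202) and the median of the phosphatase and Sprouty list to -0.28. The cause was not tested. Arrays scaled to equal medians gave 2056 (LPS), 319 (within slides) and 8595 (SB+LPS), and a metallothionein median of 0.09. That scaling shifted the median of all genes to 0.21 with LPS, -0.34 in controls, 0.64 for the interaction and 1.02 for SB+LPS, and the shares called higher to 78.4%, 7.11%, 91.6% and 96.3%, against 57.3%, 45.7%, 60.2% and 58.5% after quantile normalisation. With medians equalised over probes detected on all arrays, chosen after seeing the data, SB+LPS gave 6364, the all-gene medians were -0.16, 0.17, -0.26 and -0.31, and the shares higher 47.9%, 61.6%, 37.7% and 21.3%.

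The replicate block gave 4863 genes for LPS and 2004 for the controls. As a block within each time it gave 2647 (controls), 2767 (interaction), 2416 (within slides) and 2233 (LPS-specific). With each array left out in turn the LPS count was 2921 to 4046, the interaction 1128 to 1757, within slides 960 to 1484, LPS-specific 905 (without LPS 4 h replicate 1) to 1468, the controls 390 (without control 4 h replicate 1) to 1149 (without control 4 h replicate 3, the only control array whose removal moved that count by less than 1.5 times), and SB+LPS 2368 (without SB+LPS 4 h replicate 1) to 3601. EGR1 ranged from -0.14 to 0.19, IFIT1 from -0.26 to 0.62 and IL6 from -0.92 to 0.09, so none of these has a settled sign. Without both dimmest arrays, LPS 4 h and SB+LPS 4 h replicate 1, a setting chosen after seeing the data, EGR1 was -0.09, IL6 0.09 and the LPS-specific count 997. Low bead signal limits IFNB1, IL6 and other genes near the detection floor.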
